A study of Mus musculus with 49 samples.

Results

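The genes of glycolysis and lactate handling were examined in splenic CD8+ T cells of mice that carry a knock-in (KI) of Stat5a or of Stat5b, and of wild-type (WT) littermates of each line. The 36 genes are those whose symbols were listed for glucose uptake, the glycolytic steps, lactate formation and export, and the entry of pyruvate into mitochondria, and each was read from its longest transcript. All 36 were found among the 23992 gene symbols of the files, and all 36 passed the filter on low counts that left 15566 genes for testing. In the KI alleles the codon of the STAT5 tyrosine that is phosphorylated on activation was changed to one for phenylalanine, with further silent changes, in mice crossed back to C57BL/6J. Cells of adult mice of both sexes were taken without IL-2 (0 hr) or after 4, 24, or 48 hr in recombinant human IL-2 at 500 IU/ml. RNA-seq gave 3 libraries in each of the 16 groups of line, genotype, and time. Replicate 3 of Stat5a KI at 4 hr, with 1028503 reads on the longest transcripts, was left out, and the other 47 libraries held 17369512 to 60202694 such reads. The labels do not say that libraries of a group came from separate mice, so p-values measure the spread between these libraries, which may be technical.

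Glycolysis splits glucose into pyruvate in the cytosol. Glucose enters through facilitative transporters, hexokinases trap it as glucose-6-phosphate, an upper stage splits the sugar into triose phosphates, and a lower stage yields ATP and pyruvate. Lactate dehydrogenase turns pyruvate into lactate, which leaves with a proton through monocarboxylate transporters, while pyruvate dehydrogenase feeds pyruvate to the citric acid cycle and is switched off by its kinases. T cells that divide after stimulation are known to use much glucose this way, and IL-2 signals through STAT5A and STAT5B in CD8+ T cells.

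The CD8+ T cells were enriched by depletion of other cells with a kit, so other cells may remain. The markers of CD8+ T cells (Cd8a, Cd8b1, and the CD3 chains) were abundant in all groups used, with a summed median of 969 RPKM (reads per transcript length and library size) in Stat5a WT and 1300 in Stat5b WT at 0 hr. Markers of other cells were not equal between the groups. The summed RPKM of the 11 myeloid markers found in the files at 48 hr was 15.2, 14.5, and 7.92 in Stat5a WT and 92.6, 38.05, and 39.2 in Stat5a KI. For the same list it was 6.94, 6.95, and 9.86 in Stat5b WT and 131.8, 88.95, and 107.6 in Stat5b KI. At 48 hr 9 of these 11 markers were called higher in Stat5a KI (6.34% of all genes tested) and 11 of 11 in Stat5b KI (16.5%), by the rule given below for the glycolytic genes. Mpeg1 had the highest median of them over the 47 libraries, and Fcgr1 was at 0 in all 3 libraries of Stat5b WT at 48 hr. At 0 hr the median myeloid sums were 107.8 in Stat5a WT, 183.4 in Stat5a KI, 88.0 in Stat5b WT, and 261.6 in Stat5b KI. B cell markers summed at 48 hr to medians of 33.3 in Stat5a WT, 118.2 in Stat5a KI, 13.7 in Stat5b WT, and 133.5 in Stat5b KI. All 10 were called higher in both KI lines, beside the same 6.34% and 16.5% of all genes. At 0 hr the B cell medians were 162 in Stat5a WT, 313.3 in Stat5a KI, 61.7 in Stat5b WT, and 252.9 in Stat5b KI, and the erythroid medians were 179.3, 210.7, 56.4, and 576.8. At 48 hr CD4 T cell markers summed to medians of 5.03, 12.8, 3.88, and 17.2 in the same order of groups. Erythroid markers summed to 7.29, 18.25, 5.69, and 170.2, and NK cell markers to 21.7, 24.9, 16.9, and 21.4. None of the 6 CD8+ T cell markers was called in either KI line at 48 hr, although all 6 were higher by the adjusted p alone (21.5% and 33.1% of all genes), with summed medians of 1095 in Stat5a WT, 1561 in Stat5a KI, 1059 in Stat5b WT, and 1598 in Stat5b KI. In bulk RNA, fewer cells of a type and less RNA per cell cannot be told apart.

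Another library stood apart. Replicate 2 of Stat5a WT at 4 hr had 17369512 reads, the fewest of the 47 libraries, and 44.9% of its mapped reads fell on the longest transcripts, against 71.7% and 72.9% in its sister libraries. Its 36 genes summed to 735.5 RPKM, against 1182 and 1222 in the others, and it held the lowest value of the 47 libraries for 29 of the 36 genes. The Stat5a comparisons at 4 hr are therefore also given without it.

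The amount of mRNA of the targeted genes is no check of the genotypes, since the knock-in changes codons. Stat5a mRNA was 19.5, 19.003, and 20.5 RPKM in Stat5a WT and 17.95, 20.6, and 21.5 in Stat5a KI at 0 hr, and the groups overlapped. Stat5b mRNA at 48 hr was 20.9, 21.1, and 21.8 RPKM in Stat5b WT and 33.2, 31.5, and 28.6 in Stat5b KI, a log2 difference of 0.47 ± 0.11 (SE) with an adjusted p of 0.000533 by the quasi-likelihood test of edgeR. The same test, adjusted by Benjamini and Hochberg over all genes, gave all the adjusted p values that follow. Stat5b mRNA was also higher in Stat5a KI than in its WT at 48 hr (0.33 ± 0.11, adjusted p of 0.0156). At 0 hr the Stat5b difference in Stat5b KI was −0.17 ± 0.11 (adjusted p of 0.291).

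Pyruvate kinase, which makes pyruvate and ATP in the last glycolytic step, has alternative exons that define the M1 and M2 enzymes. RefSeq lists them as exon 9 of 11 in transcript variants 1 and 2 of Pkm, on the plus strand at chr9:59675029-59675195 and chr9:59675568-59675734 (GRCm38.p6), and the other 10 exons are shared. The exons are shown because they are the only part in which the deposited counts of the isoforms can differ. Capitals mark the 64 of 167 positions at which the aligned exons differ.

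Pkm variant 1 exon: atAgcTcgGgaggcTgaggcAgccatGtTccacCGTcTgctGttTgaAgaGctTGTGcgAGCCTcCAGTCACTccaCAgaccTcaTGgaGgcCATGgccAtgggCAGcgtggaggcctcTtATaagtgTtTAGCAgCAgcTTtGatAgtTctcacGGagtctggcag

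Pkm variant 2 exon: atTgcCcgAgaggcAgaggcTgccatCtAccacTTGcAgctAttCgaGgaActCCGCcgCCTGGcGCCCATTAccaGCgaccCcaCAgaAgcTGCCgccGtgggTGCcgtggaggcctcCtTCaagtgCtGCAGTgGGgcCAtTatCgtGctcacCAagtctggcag

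The count of variant 2 (M2) exceeded that of variant 1 (M1) in all 47 libraries. The excess, which equals M2-exon reads minus M1-exon reads, averaged 4.19% of the variant 2 reads over the 47 libraries, and the exon makes up 6.87% of the transcript length in the files. It was 4.38% ± 0.137 (SD, n = 3) in Stat5a WT and 4.56% ± 0.101 in Stat5a KI at 48 hr, and 4.91% ± 0.425 in Stat5b WT and 4.14% ± 0.621 in Stat5b KI. The ranges of KI and WT libraries overlapped in both lines at 48 hr. The lowest value, 0.597%, came from replicate 2 of Stat5a WT at 4 hr.

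The promoters of 34 of the 36 genes were listed by RefSeq (GRCm38.p6, 250 bases before to 50 after the start). These motifs were searched on both strands: CACGTG, the E-box that MYC-family proteins can bind; ACGTG, the core of the element that hypoxia-inducible factors can bind; and TTCNNNGAA, the core of STAT sites. An E-box reads the same on both strands and also counts as 2 matches of the hypoxia core. The E-box was found in 6 of the 34 genes (17.6%) and in 8.09% of the 27025 genes whose promoters were searched, which left out 1 chromosome. The hypoxia core was found in 20 of 34 (58.8%) and 21.8%, and the STAT core in 2 of 34 (5.88%, Aldoc and Pfkm) and 9.55%. A gene counted where any of its listed windows held the motif, and the number of windows differed between genes. The promoters of 5 genes whose mRNA differed in KI cells at 48 hr are shown, 4 with lower mRNA and then Pdk2 with higher, and they were chosen after their values and matches were seen. Of the 14 genes called lower in Stat5b KI at 48 hr, 2 had an E-box and 10 the hypoxia core, and 4 (Tpi1, Eno1, Pfkp, and Eno3) had neither. Of the 5 called higher, 1 had an E-box and 2 the hypoxia core, and 3 (Eno2, Ldhb, and Slc2a6) had neither. Capitals mark matches of the E-box and the hypoxia core on either strand, which are letters and not measured binding.

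Ldha promoter: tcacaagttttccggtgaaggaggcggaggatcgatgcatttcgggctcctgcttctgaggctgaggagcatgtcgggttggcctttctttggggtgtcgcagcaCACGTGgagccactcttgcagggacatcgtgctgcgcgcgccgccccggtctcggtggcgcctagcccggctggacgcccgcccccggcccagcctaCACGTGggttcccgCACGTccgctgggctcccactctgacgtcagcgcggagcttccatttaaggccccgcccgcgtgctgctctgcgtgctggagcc

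Slc16a1 promoter: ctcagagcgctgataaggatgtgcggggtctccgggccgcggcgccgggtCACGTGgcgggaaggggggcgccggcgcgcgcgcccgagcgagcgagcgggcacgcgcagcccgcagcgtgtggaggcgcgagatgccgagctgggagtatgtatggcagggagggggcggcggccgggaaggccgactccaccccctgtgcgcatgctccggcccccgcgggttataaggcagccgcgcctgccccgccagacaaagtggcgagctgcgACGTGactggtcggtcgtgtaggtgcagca

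Hk2 promoter: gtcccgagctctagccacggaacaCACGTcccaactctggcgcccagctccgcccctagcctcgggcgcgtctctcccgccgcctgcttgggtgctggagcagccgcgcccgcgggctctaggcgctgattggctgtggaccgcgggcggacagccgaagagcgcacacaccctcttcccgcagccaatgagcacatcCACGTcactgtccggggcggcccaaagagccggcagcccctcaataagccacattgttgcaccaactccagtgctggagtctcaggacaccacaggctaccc

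Slc16a3 promoter: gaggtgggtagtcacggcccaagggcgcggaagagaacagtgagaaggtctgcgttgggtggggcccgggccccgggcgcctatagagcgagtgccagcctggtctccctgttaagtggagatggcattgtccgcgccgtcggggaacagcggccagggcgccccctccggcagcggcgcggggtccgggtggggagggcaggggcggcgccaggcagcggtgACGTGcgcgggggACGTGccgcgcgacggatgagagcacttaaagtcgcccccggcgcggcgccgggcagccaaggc

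Pdk2 promoter: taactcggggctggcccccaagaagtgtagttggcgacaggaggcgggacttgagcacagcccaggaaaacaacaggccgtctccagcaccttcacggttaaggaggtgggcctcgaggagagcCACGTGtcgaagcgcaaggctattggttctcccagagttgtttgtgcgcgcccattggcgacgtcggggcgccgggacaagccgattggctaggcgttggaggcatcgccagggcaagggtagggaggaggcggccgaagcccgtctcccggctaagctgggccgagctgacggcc

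These windows lie at chr7:46845554-46845853 (plus strand, Ldha, lactate dehydrogenase A), chr3:104638414-104638713 (plus, Slc16a1, the lactate transporter MCT1), chr6:82774405-82774704 (minus, Hk2, hexokinase 2), chr11:120948817-120949116 (plus, Slc16a3, the lactate exporter MCT4), and chr11:95041322-95041621 (minus, Pdk2, a kinase that inhibits pyruvate dehydrogenase). Ldha and Pdk2 have 2 listed windows each, and the one with more matches is shown. The Ldha window held 2 E-boxes and the Slc16a1 and Pdk2 windows 1 each. The windows of Hk2 and Slc16a3 held no E-box and 2 matches of the hypoxia core each.

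WT cells at 4, 24, and 48 hr were compared with 0 hr to ask which of these genes changed in culture with IL-2. No group was cultured for these times without IL-2, so IL-2 and time in culture cannot be told apart. The 36 genes took 0.400% to 0.434% of the reads in the WT libraries of both lines at 0 hr and 0.916% to 1.05% at 48 hr. At 48 hr every step from aldolase to lactate dehydrogenase had a gene that was called higher, while the mRNA of the glucose transporters Slc2a1 and Slc2a3 was below its 0 hr level. All levels are relative to the reads of each library, and amounts per cell were not measured. A gene was called where the adjusted p was 0.05 or lower and the level differed 2-fold or more. In Stat5a WT 13 of the 36 genes were called higher at 48 hr (14.3% of all genes tested) and 4 lower (22.3%), and in Stat5b WT 13 were called higher (14.6%) and 5 lower (20.7%). The median log2 fold change of the 36 genes was 0.48 and 0.44, beside −0.12 and −0.13 over all genes tested.

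Uptake and trapping did not move as one. Slc2a1 (GLUT1, a main glucose carrier of T cells) was 30.7, 34.1, and 26.0 RPKM at 0 hr and 19.04, 24.6, and 22.4 at 48 hr in Stat5a WT, and 31.7, 27.0, and 27.7 against 25.6, 25.4, and 23.9 in Stat5b WT. All 48 hr libraries lay below all 0 hr libraries in both lines, and the log2 change of −0.67 ± 0.09 and −0.38 ± 0.09 passed the adjusted p but not the 2-fold threshold. Slc2a3 (GLUT3, a carrier with high affinity for glucose) was lower by 0.53 and 0.33 on the log2 scale. Slc2a6, an intracellular glucose transporter, went from 1.26, 1.21, and 1.55 RPKM to 0.471, 0.449, and 0.999 in Stat5b WT, with no overlap, and was called lower (−1.25 ± 0.33). In Stat5a WT its log2 change was −0.87 ± 0.31.

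Hk2, the inducible hexokinase (chr6:82725025-82774454), rose in both lines. It was 4.77, 4.56, and 2.88 RPKM at 0 hr and 7.59, 10.8, and 9.86 at 48 hr in Stat5a WT, a log2 change of 1.00 ± 0.16 that sat at the 2-fold threshold and fell to 0.87 without replicate 3 of the 0 hr group, and to 0.90 and 0.96 without replicates 2 and 3 of the 48 hr group. In Stat5b WT it went from 3.09, 2.38, and 3.10 to 10.5, 9.94, and 9.23, a log2 change of 1.62 ± 0.16. Hk1, the constitutive hexokinase, was the most abundant of the hexokinases in each of the 16 groups, and its log2 change at 48 hr was 0.62 and 0.39. Hk3, a hexokinase known from myeloid cells, went from 1.65, 1.66, and 1.31 RPKM to 0.9455, 0.757, and 0.526 in Stat5a WT and from 1.51, 1.83, and 2.15 to 0.5255, 0.442, and 0.721 in Stat5b WT. It fell by 1.26 and 1.88 on the log2 scale, with no overlap of the groups. The myeloid marker sums fell with it, from medians of 107.8 to 14.5 in Stat5a WT and from 88.0 to 6.95 in Stat5b WT, and their part in the change of Hk3 was not tested.

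In the upper stage, Tpi1 (triosephosphate isomerase, chr6:124810586-124814158) had the largest rise of the 36 genes in both lines. Its libraries read 19.7, 19.5, and 22.9 RPKM at 0 hr and 136.4, 186, and 172 at 48 hr in Stat5a WT. In Stat5b WT they read 19.1, 23.5, and 23.4, and then 190, 198.5, and 173. The groups were far apart, with log2 changes of 2.78 ± 0.17 and 2.92 ± 0.17, or 6.88-fold and 7.56-fold. Aldoa (aldolase A) went from 102, 108.1, and 129.3 RPKM to 334, 440, and 393 in Stat5a WT (1.57 ± 0.09) and from 124.7, 144.9, and 141.1 to 445, 454, and 414 in Stat5b WT (1.504 ± 0.09). Pfkp (the platelet-type phosphofructokinase subunit) went from 17.8, 18.8, and 19.35 to 57.7, 67.9, and 60.2 in Stat5a WT (1.52 ± 0.08) and from 20.1, 23.0, and 22.7 to 65.8, 68.0, and 67.3 in Stat5b WT (1.44 ± 0.08). Neither gene had overlapping groups. The other phosphofructokinase subunits, Pfkl and Pfkm, rose by less than 2-fold.

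Of the 4 genes of the bifunctional PFK2 enzymes, which set the level of an activator of phosphofructokinase, none was called higher. Over all genes 14.3% and 14.6% were called higher in the Stat5a and Stat5b lines and 22.3% and 20.7% lower. Pfkfb4 fell by 1.07 and 1.18 on the log2 scale, and the Stat5a value was −0.93, −0.88, and −0.99 without replicate 1 or 2 of the 0 hr group or replicate 2 of the 48 hr group. Pfkfb3, the most abundant of them, was lower by 0.36 and 0.51.

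In the lower stage 6 of 9 genes were called higher in both lines (14.3% and 14.6% of all genes), and Eno2 was called lower (22.3% and 20.7%). Gapdh (glyceraldehyde-3-phosphate dehydrogenase) went from 303, 321, and 345 RPKM to 948, 1138, and 1085 in Stat5a WT and from 307, 337, and 332 to 1112, 1117, and 1095 in Stat5b WT. Its level at 48 hr was the highest of the 36 genes. Pgk1 (phosphoglycerate kinase 1) went from 64.2, 65.5, and 73.5 to 291, 359, and 333 in Stat5a WT and from 64.1, 74.9, and 75.6 to 369, 377, and 350 in Stat5b WT (2.07 and 2.18 on the log2 scale). Pgam1 (phosphoglycerate mutase 1) went from 41.5, 43.0, and 37.9 to 160, 202, and 187.5, and from 35.2, 42.6, and 40.9 to 209.8, 210.4, and 197 (1.96 and 2.21). Eno1 (enolase 1), the main enolase of these cells, rose alike, from 93.6, 89.25, and 117.5 to 496, 592, and 526, and from 108.6, 131.1, and 133.03 to 604, 604, and 590 (2.22 and 2.10). The groups of these genes did not overlap, and Eno3 (the muscle-type enolase) rose by 1.24 and 1.17 and Pkm by 1.32 and 1.45. Of the other genes of this stage, Bpgm (which makes 2,3-bisphosphoglycerate in a side branch) went from a mean of 8.57 to 5.53 RPKM in Stat5a WT and from 7.92 to 5.83 in Stat5b WT, and Adpgk (an ADP-dependent glucokinase that was listed with this stage) from 13.5 to 18.7 and from 15.02 to 19.3, neither by 2-fold. Eno2, the enolase named for neurons (chr6:124760053-124769673), went the other way. It was 0.625, 0.632, and 1.18 RPKM at 0 hr and 0.193, 0.243, and 0.288 at 48 hr in Stat5a WT, and 0.845, 0.796, and 0.644 against 0.194, 0.176, and 0.148 in Stat5b WT. The log2 changes were −1.96 ± 0.25 and −2.31 ± 0.26, at a level that was under 1% of the summed enolase RPKM in each group at 48 hr. Reads were kept only where they mapped once, and Gapdh, Ldha, Pgam1, Eno1, Aldoa, Tpi1, Pgk1, and Pkm have processed pseudogenes that can take such reads away, so their levels are uncertain.

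Of the 4 lactate genes, Ldha and Slc16a3 were called higher in both lines (14.3% and 14.6% of all genes) and none was called lower (22.3% and 20.7%). Ldha went from 133.5, 127.7, and 156 RPKM to 516, 621, and 601 in Stat5a WT and from 137.7, 158, and 152.1 to 627, 629, and 616 in Stat5b WT, with log2 changes of 1.85 ± 0.10 and 1.89 ± 0.10. Ldhb, whose product is known for turning lactate back to pyruvate, had log2 changes of −0.81 and −0.98. Its share of the summed Ldha and Ldhb RPKM fell from 4.33% ± 0.194 to 0.714% ± 0.153 (SD, n = 3) in Stat5a WT and from 3.89% ± 0.12 to 0.548% ± 0.0503 in Stat5b WT. Slc16a3 was 0.440, 0.6875, and 0.580 RPKM at 0 hr and 1.89, 3.395, and 3.01 at 48 hr in Stat5a WT, and 0.442, 0.493, and 0.643 against 3.44, 4.29, and 2.64 in Stat5b WT. Its log2 rise was 2.07 ± 0.28 and 2.54 ± 0.29, while the more abundant Slc16a1 rose by 0.53 and 0.89.

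At the entry to mitochondria, the kinases of pyruvate dehydrogenase diverged. Pdk3 rose by 1.00 and 1.07 on the log2 scale, the first at the threshold and 0.99 without replicate 2 of Stat5a WT at 48 hr. Pdk2 fell by 1.19 and 1.55, and the enzyme's subunits Pdha1 and Pdhb moved by 0.28 to 0.48.

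At 4 hr no gene was called higher in either line (10% and 5.83% of all genes tested in Stat5a and Stat5b WT), and 6 of 36 were called lower in Stat5a WT (11.4% of all genes tested) and 4 in Stat5b WT (9.89%). Slc2a1, Hk2, Hk3, and Aldoc (aldolase C) were called lower in both lines, and Slc2a3 and Slc16a1 in Stat5a WT. The Slc2a1 call in Stat5b WT (−1.03) was lost without replicate 1 of the 0 hr group (−0.91). Hk2 dropped to 1.69, 1.07, and 1.34 RPKM in Stat5a WT and to 1.475, 1.4998, and 1.51 in Stat5b WT, below all 0 hr libraries. Its log2 change was −1.54 in Stat5a WT, and −1.56 without the shallow replicate 2, against −1.11 in Stat5b WT. Without that replicate 6 genes were called lower again, with Slc2a1 at −1.37 and Slc16a1 at −1.003.

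By 24 hr, 3 genes were called higher in Stat5a WT (Tpi1, Eno1, and Pgk1, 8.72% of all genes) and 5 in Stat5b WT (the same genes with Pgam1 and Ldha, 9.07%). Slc2a1 was called lower in both lines (14.2% and 13.5% of all genes were called lower), and Hk3 in Stat5b WT. The Slc2a1 call in Stat5b WT sat at the threshold, with a log2 change that lay under 2-fold without any 1 of 5 of the 6 libraries, and at −0.85 without replicate 1 of the 0 hr group. The 4 of 36 genes called lower at 4 hr in Stat5b WT and the 3 of 36 called higher at 24 hr in Stat5a WT are close to the shares of all genes, and nothing particular to the 36 genes is read from these counts.

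**Figure D1:**
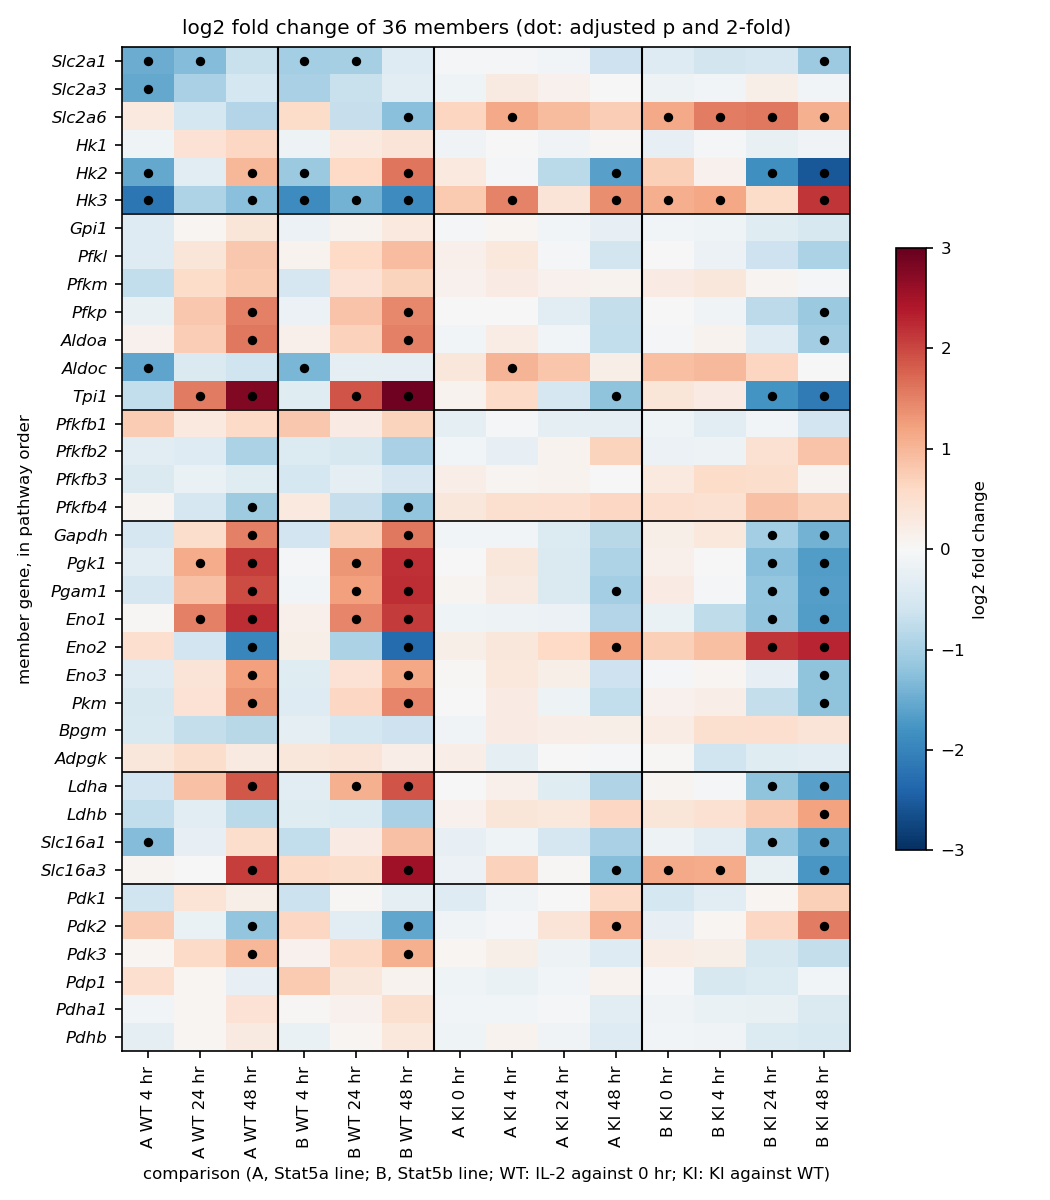
Log2 fold change of each of the 36 genes (rows, in pathway order) in 14 comparisons (columns): WT cells with IL-2 against 0 hr, and KI against WT at each time, for the Stat5a (A) and Stat5b (B) lines. Dots mark an adjusted p of at most 0.05 with a 2-fold change, and at 48 hr WT cells have 13 genes called higher and 4 lower in the Stat5a line (14.3% and 22.3% of all genes) and 13 and 5 in the Stat5b line (14.6% and 20.7%), while KI cells have 3 higher and 4 lower (6.34% and 2.43%) and 5 and 14 (16.5% and 9.81%).

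KI against WT asks how the levels differed between cells with and without the tyrosine of each STAT5 protein. The paper reports fewer memory and virtual memory CD8+ T cells in the spleens of both KI lines. The part of such differences among the CD8+ T cells was not tested. Before IL-2, none of the 36 genes was called in Stat5a KI by edgeR (0.861% of all genes were called higher and 0.18% lower), 0 by DESeq2, and 5 (beside 16.2% of all genes) had an unadjusted p under 0.05. Stat5b KI cells already had more Slc2a6, Hk3, and Slc16a3 mRNA at 0 hr (7.38% of all genes were called higher and 0.604% lower). These 3 of 36 genes are close to the share of all genes, and nothing particular to the 36 is read from the count. Slc2a6 was 1.26, 1.21, and 1.55 RPKM in WT and 2.94, 4.025, and 2.25 in KI, a log2 difference of 1.13 ± 0.31 that was 0.89 without replicate 2 of the KI group. Hk3 differed by 1.08 ± 0.30, and by 0.96 and 0.89 without replicate 1 of WT or of KI. Slc16a3 was 0.442, 0.493, and 0.643 RPKM in WT and 1.10, 1.23, and 1.29 in KI, a log2 difference of 1.13 ± 0.29. The myeloid marker sum of these KI cells was also higher, at 206.3 to 325.4 RPKM against 87.8 to 107.6. The erythroid sum was 393.8 to 980 against 38.0 to 117.3, and the B cell sum 246.9 to 254.6 against 60.1 to 69.4. The part of these cells in the differences was not tested. Hk2 stood at 0.70 ± 0.16 at 0 hr in Stat5b KI against WT, above WT in every library. It was also above WT in every library at 4 hr, and below it at 24 and 48 hr.

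At 4 hr the same 3 genes were called higher in Stat5b KI (9.2% of all genes), a count that is again close to the share of all genes. Hk3 had a log2 difference of 1.17 that was 0.96 without replicate 1 of WT and 1.00 without replicate 1 of KI. The marker sums of these Stat5b KI libraries were again higher, at 130.7 to 154 RPKM against 38.5 to 51.9 in WT for myeloid cells, 338.3 to 823.1 against 34.8 to 91.7 for erythroid cells, and 205.5 to 225.8 against 42.9 to 55.3 for B cells, and their part in the calls was not tested. In Stat5a KI, with 2 libraries, Slc2a6, Hk3, and Aldoc were called higher (2.47% of all genes) and none lower (4.16%). The Stat5a calls were weak: without the shallow WT replicate 2 only Hk3 was called, without replicate 1 of the KI group none was, and none was when only these 5 libraries were fitted. The myeloid sums were 113.7 and 62.9 RPKM in these KI libraries and 29.3 to 44.5 in WT, and the B cell sums 325.9 and 217.7 against 46.4 to 142.5.

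At 24 hr no gene was called in Stat5a KI by edgeR or DESeq2 (3.21% of all genes were called higher and 1.24% lower), although 4 were higher and 8 lower by the adjusted p alone (9.49% and 9.01% of all genes) and 16 (beside 30.5% of all genes) had an unadjusted p under 0.05. Hk2 was nearest to the threshold among those lower, with 3.11, 3.90, and 3.85 RPKM in WT and 2.32, 2.03, and 2.13 in KI, a log2 difference of −0.81 ± 0.17. In Stat5b KI at 24 hr, 8 genes were called lower (5.77% of all genes) and 2 higher (10.9%). Those lower were Hk2 (−1.83 ± 0.17), Tpi1 (−1.80 ± 0.16), Pgk1, Ldha, Eno1, Pgam1, Slc16a1, and Gapdh, from −1.26 to −1.02 for the last 6. Gapdh was at −0.95 without replicate 2 of WT, and at −0.99 without replicate 1 or 3 of KI. Eno2 (2.14 ± 0.24) and Slc2a6 (1.57 ± 0.31) were higher. Marker sums of these Stat5b KI libraries were higher too, at 53.3 to 117.5 RPKM against 14.7 to 22.05 in WT for myeloid cells. They were 185.2 to 421.9 against 17.9 to 35.7 for erythroid cells and 182.4 to 210 against 26.35 to 33.3 for B cells. Their part in the calls was not tested.

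At 48 hr Hk2, Tpi1, Pgam1, and Slc16a3 were called lower in the KI cells of both lines. In Stat5a KI 4 of 36 genes were called lower (2.43% of all genes tested) and 3 higher (6.34%). In Stat5b KI 14 were called lower (9.81%) and 5 higher (16.5%). Counted by the adjusted p alone, 19 were lower (22.8% of all genes) and 7 higher (21.5%) in Stat5a KI, and 21 were lower (30.5%) and 9 higher (33.1%) in Stat5b KI. The median log2 difference of the 36 genes was −0.30 in Stat5a KI and −0.47 in Stat5b KI, beside 0.04 and 0.10 over all genes tested. Both KI comparisons at 48 hr use the same WT libraries as the 48 hr IL-2 comparisons, so the opposite signs are not independent of each other.

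Hk2 had the largest loss in both lines. It was 7.59, 10.8, and 9.86 RPKM in Stat5a WT and 3.66, 2.85, and 3.01 in Stat5a KI, a log2 difference of −1.62 ± 0.16 or 3.08-fold, with an adjusted p of 7.3e-10. In the Stat5b line it was 10.5, 9.94, and 9.23 in WT and 1.81, 1.77, and 1.79 in KI, which is −2.55 ± 0.17 or 5.84-fold, with an adjusted p of 2.9e-15. All KI libraries lay below all WT libraries, and Stat5b KI at 48 hr stayed below its own 0 hr level of 4.12 to 5.94. Hk2 made up 17.6% ± 2.501 (SD, n = 3) of the summed hexokinase RPKM in Stat5a WT and 6.17% ± 0.782 in Stat5a KI, and 18.96% ± 1.63 in Stat5b WT and 3.96% ± 0.379 in Stat5b KI.

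**Figure D2:**
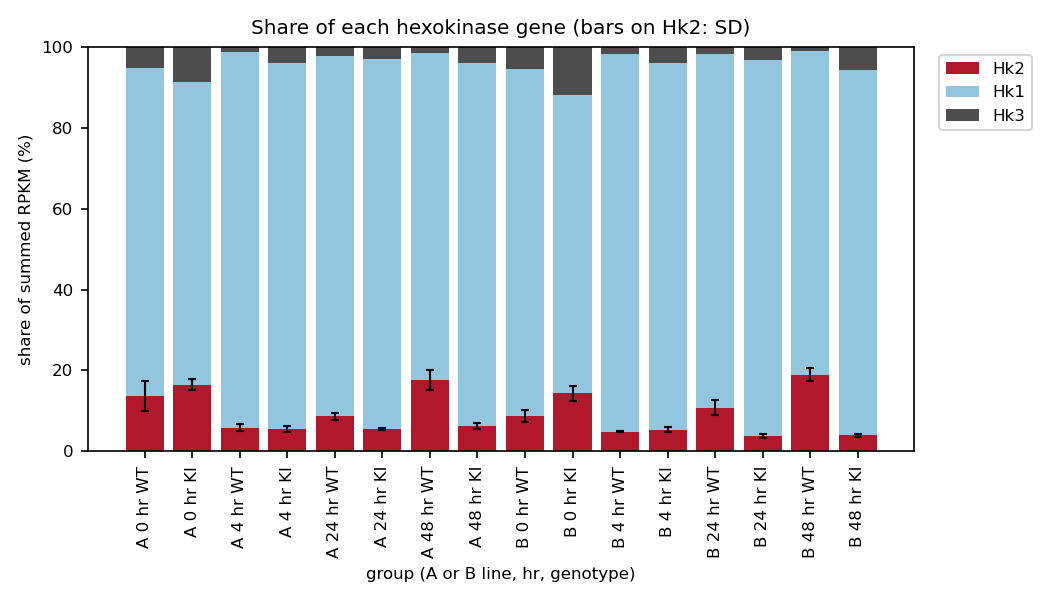
Share of Hk1, Hk2, and Hk3 in their summed RPKM (percent, vertical axis) for each of the 16 groups (horizontal axis, line A or B, hr, genotype). Bars are group means and the error bars on Hk2 are SD of 3 libraries (2 for Stat5a KI at 4 hr), and at 48 hr the Hk2 share is 17.6% and 18.96% in WT cells against 6.17% and 3.96% in KI cells.

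Slc2a1 was lower in both lines. Its KI values at 48 hr were 15.5, 14.9, and 14.1 RPKM in Stat5a KI (log2 difference −0.62 ± 0.09) and 13.1, 13.1, and 11.1 in Stat5b KI (−1.08 ± 0.10, called). Slc2a6 was 0.471, 0.449, and 0.999 RPKM in Stat5b WT and 1.63, 1.11, and 1.48 in Stat5b KI, called at 1.07 ± 0.32, but 0.90, 0.87, and 0.97 without replicate 1 or 2 of WT or replicate 1 of KI. Hk3 was 0.9455, 0.757, and 0.526 RPKM in Stat5a WT and 3.19, 1.44, and 1.503 in Stat5a KI, a log2 difference of 1.40 ± 0.31 that was 0.96 without replicate 1 of KI. This KI library also had the highest myeloid marker sum of its group, 92.6 RPKM. In the Stat5b line Hk3 was 0.5255, 0.442, and 0.721 in WT and 3.28, 2.39, and 2.22 in KI (2.15 ± 0.32). B cell and erythroid marker sums were also higher in KI cells of both lines. The part of myeloid, B, or erythroid cells in the Hk3 and Slc2a6 values was not tested.

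**Figure D3:**
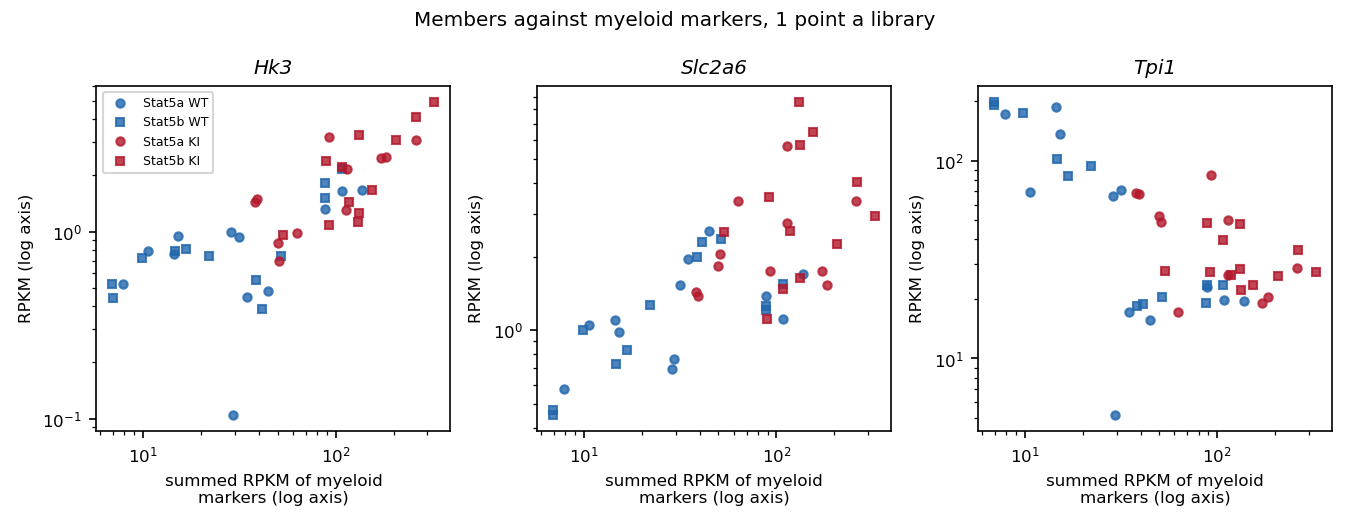
RPKM of Hk3, Slc2a6, and Tpi1 (vertical, log axis) against the summed RPKM of the myeloid markers (horizontal, log axis), 1 point for each of the 47 libraries, coloured by genotype and shaped by line. The highest Hk3 values, 4.95 and 4.08, are of Stat5b KI libraries at 0 hr with marker sums of 325.4 and 261.6, while the libraries with the highest Tpi1 are WT libraries at 48 hr with sums of 6.94 to 15.2.

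Tpi1 led the losses of the upper stage. It was 136.4, 186, and 172 RPKM in Stat5a WT and 85.1, 68.75, and 67.7 in Stat5a KI (−1.21 ± 0.16, adjusted p of 1.3e-07), and 190, 198.5, and 173 in Stat5b WT and 47.8, 48.4, and 39.7 in Stat5b KI (−2.13 ± 0.17, adjusted p of 1.2e-13). The groups did not overlap in either line. Pfkp was at −0.72 in Stat5a KI and −1.11 in Stat5b KI, and Aldoa at −0.73 and −1.05. Both passed the adjusted p in both lines and the 2-fold threshold in Stat5b KI, and Aldoa came to −0.997 without replicate 3 of that KI group. Pfkm, a subunit of the same enzyme, was 3.61, 3.33, and 3.60 RPKM in Stat5b WT and 3.76, 3.78, and 3.10 in Stat5b KI, and the groups overlapped.

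In the lower stage of Stat5b KI, 6 of 9 genes were called lower (Gapdh, Pgk1, Pgam1, Eno1, Eno3, and Pkm, beside 9.81% of all genes) and Eno2 higher (16.5%). Pgk1 was 369, 377, and 350 RPKM in WT and 102.6 to 135.2 over the KI libraries (−1.68 ± 0.12), and Eno1 was 604, 604, and 590 against 216, 214, and 165 (−1.68 ± 0.11). Pgam1 was 209.8, 210.4, and 197 in WT and 74.0, 75.6, and 59.55 in KI (−1.64 ± 0.10). Gapdh was 1112, 1117, and 1095 against 439, 482, and 384 (−1.43 ± 0.13). Every KI library lay far below every WT library for these genes. In Stat5a KI, Pgam1 alone was called lower in this stage, with 160, 202, and 187.5 RPKM in WT and 105, 88.4, and 87.7 in KI (−1.02 ± 0.10). It fell just under 2-fold when 1 library was left out (−0.96 and −0.998 without replicate 2 or 3 of WT, −0.99 without replicate 2 or 3 of KI), and Pgk1, Eno1, and Gapdh were at −0.93, −0.88, and −0.84.

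Eno2 was higher in KI cells of both lines at 48 hr. It was 0.193, 0.243, and 0.288 RPKM in Stat5a WT and 0.673, 0.564, and 0.499 in Stat5a KI (1.20 ± 0.25, adjusted p of 0.00015), and 0.194, 0.176, and 0.148 in Stat5b WT and 1.025, 0.662, and 0.987 in Stat5b KI (2.28 ± 0.26, adjusted p of 1.2e-09). All KI libraries lay above all WT libraries. Eno2 reached 0.182% ± 0.0242 of the summed enolase RPKM in Stat5a KI and 0.434% ± 0.135 in Stat5b KI, so total enolase mRNA followed Eno1.

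Of the lactate genes, Slc16a3 was called lower in Stat5a KI (2.43% of all genes). Ldha, Slc16a1, and Slc16a3 were called lower in Stat5b KI (9.81%), where Ldhb was called higher (16.5%). Ldha was 516, 621, and 601 RPKM in Stat5a WT and 357, 309, and 301 in Stat5a KI (−0.90 ± 0.10), and 627, 629, and 616 in Stat5b WT and 222, 232.5, and 188 in Stat5b KI (−1.62 ± 0.10, called). Slc16a1 was 32.5, 38.0, and 35.96 RPKM in Stat5a WT and 20.2, 18.0, and 17.9 in Stat5a KI (−0.98 ± 0.12), and 39.4, 37.9, and 39.25 against 13.3, 15.7, and 13.05 in the Stat5b line (−1.55 ± 0.13, called). Slc16a3 was called in both, at 1.41, 1.10, and 1.02 RPKM in Stat5a KI (−1.28 ± 0.27) and 0.964, 1.24, and 1.08 in Stat5b KI (−1.74 ± 0.27). Ldhb was 3.365, 3.82, and 3.14 in Stat5b WT and 9.97, 7.48, and 7.94 in Stat5b KI (1.22 ± 0.13, called), and differed by 0.61 ± 0.13 in the Stat5a line. The Ldhb share of the summed lactate dehydrogenase RPKM was 0.714% in Stat5a WT and 2.00% ± 0.18 in Stat5a KI, and 0.548% in Stat5b WT and 3.83% ± 0.625 in Stat5b KI.

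Among the pyruvate dehydrogenase regulators, Pdk2 was higher in both KI lines. It was 1.90, 1.64, and 1.61 RPKM in Stat5a WT and 3.705, 3.56, and 3.67 in Stat5a KI (1.03 ± 0.13, and 0.99 without replicate 2 or 3 of WT), and 1.20, 1.49, and 1.58 in Stat5b WT and 4.42, 3.99, and 4.66 in Stat5b KI (1.54 ± 0.13). The groups did not overlap. Pdk1, a kinase known as a target of hypoxia-inducible factor, was above WT by 0.57 and 0.70 on the log2 scale, and Pdk3 below by 0.39 and 0.71.

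**Figure D4:**
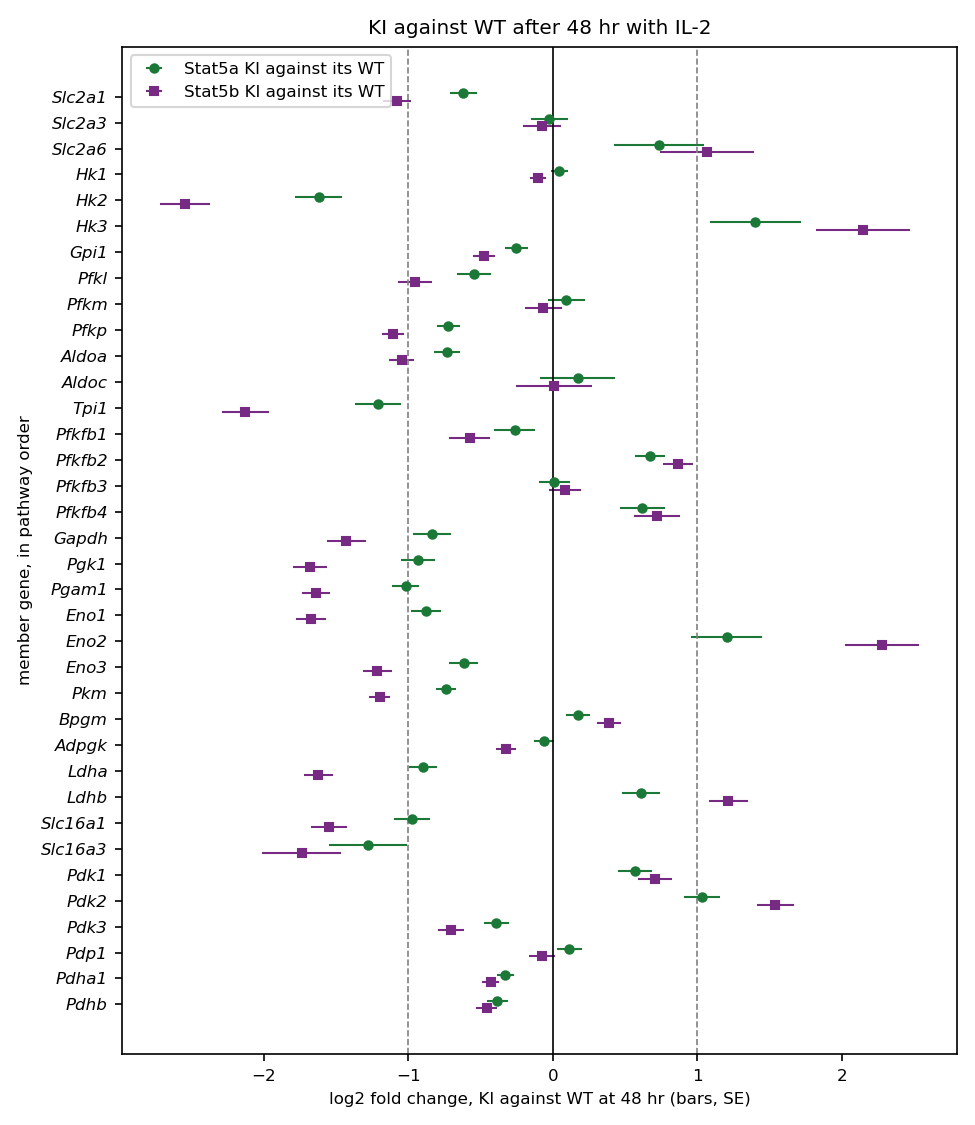
Log2 fold change of KI against WT at 48 hr (horizontal axis, bars are SE) for the 36 genes in pathway order (vertical axis), with circles for the Stat5a line and squares for the Stat5b line. Dashed lines mark 2-fold, and Hk2 lies lowest in both lines at −1.62 and −2.55 while Eno2, Hk3, and Pdk2 lie above 1 in both.

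The lines were compared by the difference of their KI effects at 48 hr. Only Eno2 was called (1.55% of all genes were called higher in this contrast and 0.514% lower), with a difference of 1.08 ± 0.36 and an adjusted p of 0.045, and the call was lost with the replicate block (adjusted p of 0.051) and without any 1 of 9 of the 12 libraries. By the adjusted p alone, 12 genes were lower by more in Stat5b KI (7.83% of all genes), and Eno2 and Ldhb were higher by more (3.2%). The 12 were Hk2 (−0.92 ± 0.23), Tpi1 (−0.92 ± 0.22), Eno1 (−0.80 ± 0.15), Pgk1 (−0.75 ± 0.16), Ldha (−0.72 ± 0.14), Pgam1 (−0.62 ± 0.14), Eno3, Gapdh, Slc16a1, Pkm, Slc2a1, and Pfkp. The difference for Ldhb was 0.61 ± 0.19. Slc16a3 (−0.46), Pdk2 (0.51), and Hk3 (0.75) did not pass the adjusted p, which does not show that the lines acted alike. Marker sums of other cells also differed between the lines. At 48 hr the erythroid medians were 7.29 in Stat5a WT, 18.25 in Stat5a KI, 5.69 in Stat5b WT, and 170.2 in Stat5b KI. The myeloid medians were 14.5, 39.2, 6.95, and 107.6 in the same order. The part of these cells, or of other differences between the libraries of the lines, was not tested.

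The change from 0 to 48 hr was also compared between KI and WT cells within a line. In Stat5a KI, 4 genes had a negative difference (Hk2, Tpi1, Pgam1, and Slc16a3, 3.09% of all genes) and 2 a positive one (Eno2 and Pdk2, 3.16%). In Stat5b KI, 12 genes had a negative difference (11.1% of all genes) and 5 a positive one (10.3%), of which Hk3 (1.06) was lost without any of several single libraries, at 0.89 without replicate 3 of the KI group at 0 hr. Hk2 had the largest of them, −1.92 ± 0.23 for Stat5a KI and −3.25 ± 0.24 for Stat5b KI, followed by Slc16a3 (−2.87 ± 0.40) and Tpi1 (−2.50 ± 0.23) for Stat5b KI. This test subtracts the difference of KI and WT at 0 hr. In Stat5b KI at 0 hr Slc16a3 and Hk2 were above WT, Hk2 with a mean of 4.87 RPKM against 2.86. Part of their values above thus comes from the 0 hr levels. The Stat5a calls of Eno2 and Slc16a3 were lost without any of several single libraries. Eno2 was at 0.64 without replicate 3 of Stat5a WT at 0 hr, and Slc16a3 at −0.95 without replicate 2 of Stat5a WT at 48 hr. In the Stat5b line 15 genes were called without replicate 2 of KI at 0 hr, so Hk3 was not the only call lost to a single library.

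**Figure D5:**
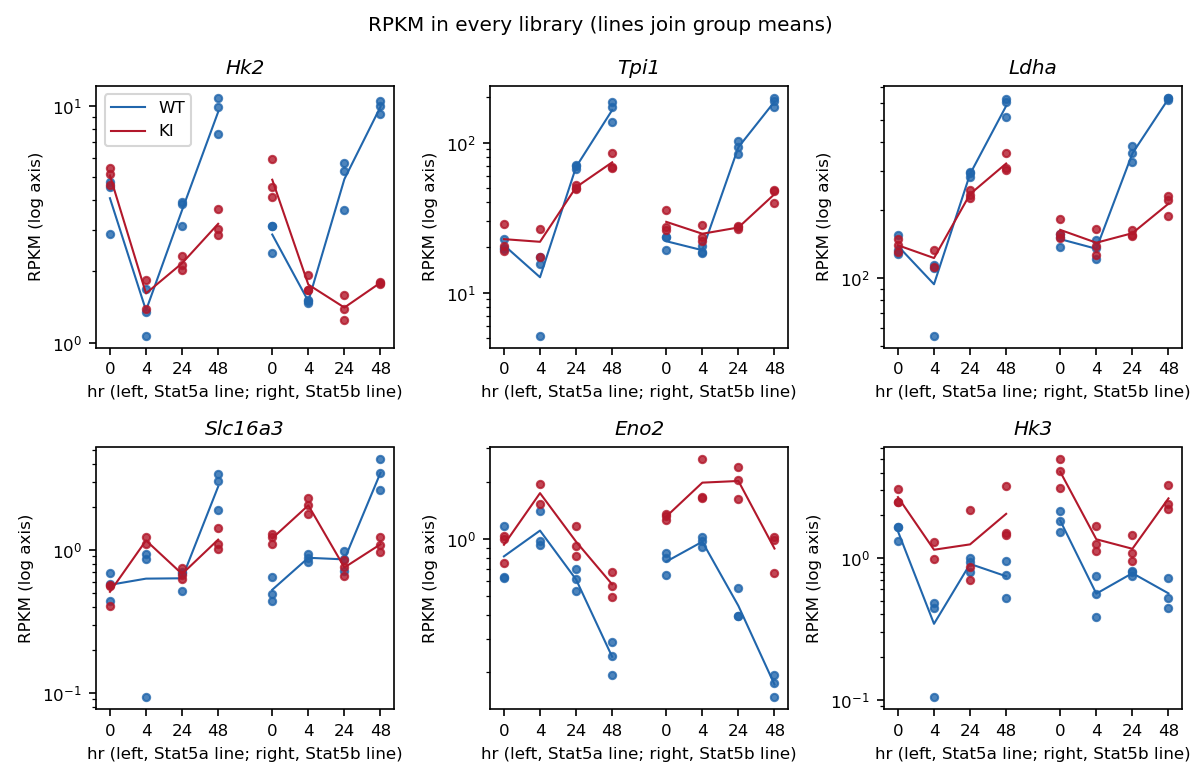
RPKM (vertical, log axis) of Hk2, Tpi1, Ldha, Slc16a3, Eno2, and Hk3 at 0, 4, 24, and 48 hr (horizontal axis) in every library, blue for WT and red for KI, with the Stat5a line on the left and the Stat5b line on the right of each panel. Lines join group means, and in Stat5b cells Hk2 ends at 9.23 to 10.5 in WT and 1.77 to 1.81 in KI.

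Genes around the pathway were read from lists of related enzymes and regulators. Of 8 genes of the pentose phosphate pathway, which branches from glucose-6-phosphate and makes NADPH and ribose, 3 were called higher at 48 hr in WT cells of both lines. Over all genes 14.3% and 14.6% were called higher in these comparisons and 22.3% and 20.7% lower, and in KI cells at 48 hr 2.43% (Stat5a) and 9.81% (Stat5b) were called lower and 6.34% and 16.5% higher, which holds for each of the lists that follow. The 3 genes were Pgd, Tkt, and G6pdx, with log2 changes of 1.38, 1.35, and 1.23 in Stat5a WT and 1.41, 1.34, and 1.13 in Stat5b WT. In Stat5b KI at 48 hr Tkt (−1.23 ± 0.10) and Pgd (−1.04 ± 0.07) were called lower, and none of the 8 was called in Stat5a KI. Of 5 genes of pyruvate dehydrogenase and the mitochondrial pyruvate carrier, Pdhx (1.15 and 1.13) and Dlat (1.01 and 1.04) were called higher in WT cells, Dlat in Stat5a WT at 0.97 without replicate 2 of the 48 hr group, 0.98 with DESeq2, and 0.99 with its size factors in edgeR, and none was called in KI cells, where Dlat was at −0.56 and −0.89.

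Of the 12 tested genes of gluconeogenesis and glycogen, Pcx (pyruvate carboxylase, which replenishes the citric acid cycle) was called higher in both WT lines (1.51 and 1.77) and lower in both KI lines (−1.32 and −1.84). Pygm, the muscle glycogen phosphorylase, had the largest fall of that list in WT cells (−2.79 and −2.60). Of 25 further genes of the same enzyme and transporter families, 15 were tested, none was called higher in WT cells at 48 hr, and Pgam2, the muscle-type mutase, went from a mean of 0.637 to 0.0244 RPKM in Stat5a WT and from 0.416 to 0.0127 in Stat5b WT (called lower), with 1 library at 0 in each 48 hr group. Slc16a7, another lactate transporter, was the called gene of that list in Stat5a KI at 48 hr (1.21, lost without replicate 3 of WT, at 0.88, without replicate 1 or 3 of KI, at 1.02 and 1.205, with no filter on low counts, at an adjusted p of 0.058, and with all 48 libraries, at 0.196) and was at 2.67 in Stat5b KI.

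Of the 19 regulators tested, Myc, an activator of glycolytic genes, had a median of 43.2 RPKM at 0 hr and 94.6 at 48 hr in Stat5a WT and of 21.2 and 93.0 in Stat5b WT. It was called higher at 4, 24, and 48 hr in both, but in Stat5a WT the log2 changes of 1.15, 1.16, and 1.08 were 0.89, 0.87, and 0.84, under 2-fold, without replicate 3 of the 0 hr group. In KI cells at 48 hr Myc was at 65.4 to 67.75 RPKM in Stat5a KI (−0.56 ± 0.17, adjusted p of 0.0087) and at 40.2 to 45.4 in Stat5b KI (−1.20 ± 0.18, called). Mycn, a close relative of Myc, had the largest change of the list, from a mean of 0.128 to 2.81 RPKM in Stat5a WT and from 0.0444 to 3.67 in Stat5b WT, with 0.841 in Stat5a KI and 0.106 in Stat5b KI at 48 hr. Hif1a, an oxygen-sensitive activator of the same genes, was lower by 0.56 and 0.62 in KI cells at 48 hr, below 2-fold. Txnip, which restrains glucose uptake and is induced by glucose metabolites, fell in WT cells by 1.99 and 1.46 on the log2 scale and was higher in Stat5b KI (1.19 ± 0.13, called) and in Stat5a KI (0.69 ± 0.12).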

How the data were processed

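RNA of splenic CD8+ T cells was sequenced as 50 bp single-end reads. The authors aligned the reads to mm10 with TopHat2 2.0.11, kept reads that mapped once, and deposited raw counts and RPKM per RefSeq transcript, 1 pair of values for each transcript and library. The submitters' processing notes also name Bowtie2 2.2.6, SAMtools 0.1.8, bedtools 2.25.0, and edgeR. The counting program and its use of strand are not given in the sources used here, so overlapping and antisense genes cannot be told apart.

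The longest transcript of each symbol was used. Replicate 3 of Stat5a KI at 4 hr was left out, which left 17369512 to 60202694 reads a library, a median of 41412095, and a floor of 3 counts equal to 0.0498 to 0.173 CPM. Deposited counts of 47 libraries were fitted with 1 mean per group by the quasi-likelihood test of edgeR 4.0.16 in R 4.3.3 (TMM, filterByExpr with a minimum count of 10), with Benjamini-Hochberg adjustment over 15566 genes. Genes were called where the adjusted p was 0.05 or lower and the difference 2-fold or more. Log2 fold changes are of normalized counts, and levels are the deposited RPKM, which correct for length. RPKM values are given for each library, in the order of the replicate numbers, for the genes called at 48 hr with groups that did not overlap, up to 10 per comparison by size of change, and other genes are given where they share a step with them. Shares are percent of the summed RPKM of a gene family and carry no test. Sequences are those of RefSeq (GRCm38.p6), and 34 of 36 genes had a promoter. The script was tested on simulated data.

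The genes and lists were chosen with earlier results of these data known. Alternatives were DESeq2 1.42.0, its size factors in edgeR, no filter on low counts, a replicate block, all 48 libraries, only the libraries compared, the transcript with the highest mean RPKM, no fold threshold, and each library left out in turn. The labels give replicate numbers in all groups and do not say that they mark a mouse or day. Same-numbered libraries deviated together, with every correlation over 0.1, in the Stat5a WT comparisons of 24 hr with 0 hr (0.206, 0.273, and 0.419) and 48 hr with 0 hr (0.166, 0.117, and 0.192), and there the block changed no call. One antibody control sample of the series was not analysed here. One marker gene is not reported here.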

Additional observations from a re-analysis of the deposited data

Results flagged for a closer look

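In the Stat5a line, 6 genes differed between KI and WT in the change from 0 to 48 hr by the test of that difference (3.16% of all genes had a positive and 3.09% a negative difference). The log2 differences were −1.92 for Hk2, −1.32 for Tpi1, −1.11 for Pgam1, −1.11 for Slc16a3, 1.14 for Pdk2, and 1.03 for Eno2.

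In the Stat5b line the same test picked out 17 genes (10.3% and 11.1% of all genes). Those with a negative log2 difference were Hk2 (−3.25), Slc16a3 (−2.87), Tpi1 (−2.50), Pgam1 (−1.88), Pgk1 (−1.83), Ldha (−1.70), Gapdh (−1.60), Eno1 (−1.48), Slc16a1 (−1.40), Pkm (−1.32), Eno3 (−1.16), and Pfkp (−1.09). Those with a positive one were Pdk2 (1.79), Eno2 (1.56), Pdk1 (1.22), Hk3 (1.06), and Pfkfb2 (1.04). The values for Hk2 and Slc16a3 include their higher level in KI than in WT cells before IL-2.

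The KI effect at 48 hr differed between the lines past both thresholds for Eno2 alone, by 1.08 on the log2 scale.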

How the results depend on the processing

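With DESeq2, or with its size factors in edgeR, 359 of 368 gene results kept their direction and their side of the threshold. Under each of these 6 became weaker and 3 stronger. Both were kept by 357 with no filter on low counts, by 360 with the transcript of the highest mean RPKM, and by 364 with only the libraries compared. With all 48 libraries 352 kept both, 11 became weaker, 4 stronger, and 1 reversed. With the replicate block 366 kept both. The block ended the calls of Aldoc in Stat5a KI at 4 hr (0.98) and of Eno2 between the lines (1.07, adjusted p of 0.051), and no others of the 36 genes. For the difference between the lines, 0 genes were called with the replicate block, with no filter on low counts, and with all 48 libraries, and for Stat5a KI at 4 hr 0 were called when only the libraries compared were fitted. Pkm in Stat5a KI at 4 hr, 0.24 on the log2 scale, reversed to −0.0806 with all 48 libraries. The causes were not tested.

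Without the fold threshold, with the share of all genes past the adjusted p in parentheses, in Stat5a WT 27 (58.4%), 24 (59%), and 35 (71.7%) genes passed at 4, 24, and 48 hr, and in Stat5b WT 22 (49.5%), 27 (59.6%), and 34 (69.9%). In Stat5a KI 9 (24.6%), 12 (18.5%), and 26 (44.3%) passed at 4, 24, and 48 hr, and 22 (28%) for the change from 0 to 48 hr. In Stat5b KI 12 (22.9%), 17 (27.3%), 30 (50.4%), and 30 (63.6%) passed at 0, 4, 24, and 48 hr, and 27 (49.4%) for the change. Between the lines 14 (11%) passed.

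When single libraries were left out, called genes numbered 6 to 6, 4 to 5, and 15 to 17 in Stat5a WT at 4, 24, and 48 hr, 3 to 4, 6 to 7, and 18 to 20 in Stat5b WT, 0 to 0, 0 to 3, 0 to 1, and 5 to 9 in Stat5a KI at 0, 4, 24, and 48 hr, 2 to 3, 2 to 5, 9 to 10, and 18 to 19 in Stat5b KI, 4 to 6 and 15 to 18 for the change in KI against WT in the Stat5a and Stat5b lines, and 0 to 2 between the lines.

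Share differences, in percentage points, ranged when single libraries were left out as follows. Hk2 ranged from 1.79 to 5.35 and 9.45 to 11.2 for 48 hr against 0 hr in Stat5a and Stat5b WT, and from −12.8 to −10.4 and −15.9 to −14.3 for KI against WT at 48 hr. Ldhb ranged from −3.72 to −3.53 and −3.38 to −3.28, and from 1.20 to 1.38 and 3.04 to 3.63. Slc16a3, as a share of Slc16a1 and Slc16a3, ranged from 3.99 to 5.34 and 4.41 to 6.35, and from −2.07 to −0.717 and −1.87 to 0.0703, the last a reversal without replicate 2 of Stat5b WT. Shares of raw counts, which do not correct for length, moved Hk2 to −14 (Stat5a KI), 12.4 (Stat5b WT), and −18.5 (Stat5b KI), Ldhb to −2.60 and 0.919 in Stat5a WT and KI and −2.41 and 2.36 in Stat5b WT and KI, and Slc16a3 to 2.66 and 3.20 in WT. The transcript with the highest mean RPKM moved Ldhb in WT to −3.25 and −2.99. Depth limits the genes with few reads: the library with the fewest reads of each in Stat5b WT at 48 hr held 21 of Eno2, 56 of Slc2a6, and 83 of Hk3.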
